A study of Mus musculus with 6 samples.

Results

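The 10 genes described here are those of antigen presentation by major histocompatibility complex (MHC) class I molecules: H2-K1, H2-D1, B2m, Tap1, Tap2, Tapbp, Psmb8, Psmb9, Psmb10 and Nlrc5. They were chosen by name, with earlier results of these data known. Every non-control probe whose accession maps to one of them was taken, which gave 15 probes among 56605 on each array. All 10 genes passed the filter on dim probes, and they are 10 of the 23060 genes tested. The study measured total RNA of cultured C57BL/6 tail tissue fibroblasts on 6 Agilent 1-colour arrays, in 3 groups of 2. Every group carries the same alleles, LH2F/F CAG-Cre (LH2 cKO), in which Cre under the broadly active CAG promoter removes lysyl hydroxylase 2 (LH2, the Plod2 product, a collagen-modifying enzyme) after tamoxifen. Control cells grew in medium without tamoxifen. The cells labelled LH2 cKO_no.1, called no.1 here, had 24 h of tamoxifen and stayed in medium that contained it. The cells labelled LH2 cKO_no.2, called no.2, had 24 h of tamoxifen and were then in medium without it. No group of Cre-negative cells given tamoxifen was analysed here, so LH2 loss, tamoxifen and time in culture cannot be told apart in a comparison with control. Nothing in the labels says that arrays sharing a group are of separate cultures or mice, and p-values then cover only the spread between these arrays, which may be technical. The names of the deposited files mark 0 h for both control arrays. In each treated group they mark 24 h for the array numbered 1 and 48 h for the array numbered 2. The labels give 24 h of tamoxifen for both. The 2 arrays of a treated group are taken as replicates here, so their spread may hold a difference in time. The first no.1 array, named often below, is the one marked 24 h.

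MHC class I molecules carry peptides from inside the cell to its surface, where CD8 T cells read them. Proteasomes cut the peptides, the transporter made of TAP1 and TAP2 moves them into the endoplasmic reticulum, tapasin (Tapbp) holds the transporter beside an empty class I molecule, and the loaded heavy chain leaves with beta-2-microglobulin (B2m). Fibroblasts, like most nucleated cells, express this pathway at a basal level, and interferon-gamma raises it through factors that include IRF1 and NLRC5, the second of which acts on the promoters through the SXY module, a row of sites that ends in an X2 box like a cyclic-AMP response element (CRE) and an inverted CCAAT (Y) box.

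Promoter windows of 300 bases (250 before to 50 after the start) were found in the RefSeq table of build GRCm38.p6 for 8 of the 10 genes, and not for Tap2 and Nlrc5. The 3 stretches below carry the elements shared by the heavy chains and their light chain, and are shown because those genes are compared with each other in the results. Capitals mark matches to an NF-kappaB motif, to the core of the CRE (TGACG), to the Y box (ATTGG, which is the reverse complement of CCAAT) and, in B2m, to an interferon-stimulated response element of GAAA and GAAA with 2 bases between them. They lie at chr17:34000359-34000458 (minus strand), chr17:35262923-35263022 (plus strand) and chr2:122147548-122147638 (plus strand).
H2-K1: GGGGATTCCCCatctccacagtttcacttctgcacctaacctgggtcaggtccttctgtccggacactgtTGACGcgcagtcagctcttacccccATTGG
H2-D1: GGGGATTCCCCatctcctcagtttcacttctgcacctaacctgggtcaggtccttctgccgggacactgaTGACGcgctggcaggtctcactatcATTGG
B2m: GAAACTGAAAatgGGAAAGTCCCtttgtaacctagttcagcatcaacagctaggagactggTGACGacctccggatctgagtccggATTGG
The H2-K1 and H2-D1 stretches are identical at 89 of 100 bases. In all 3 genes the first base of TGACG lies 25 bases before the first base of ATTGG. Over all 32851 windows of this length, 19 (0.058%) hold this pair at this spacing, from 16 genes. H2-M3, a further class I heavy chain, is also among those 16 genes, as 1 of 13 other class I genes that have a window.

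Tap1 and Psmb9 are transcribed away from each other, with 225 bases between their starts, and are shown because they share one promoter region and are measured side by side below. The stretch lies at chr17:34187331-34187555 and is printed on the strand of Tap1, with a CCAAT box and a CRE core in capitals.
Tap1 and Psmb9: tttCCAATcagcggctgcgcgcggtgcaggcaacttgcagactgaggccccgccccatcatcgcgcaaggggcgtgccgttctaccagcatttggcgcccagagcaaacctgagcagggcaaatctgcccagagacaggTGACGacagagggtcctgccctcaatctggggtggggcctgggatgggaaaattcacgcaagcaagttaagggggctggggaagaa
Searched on both strands, the CRE core was in windows of 5 of the 8 genes and in 20.81% of all windows, and the CCAAT box in 6 of the 8 and in 37.41%. The windows of Tap1 and Psmb9 overlap, and their matches are the same bases, so each of these sites counts for both genes. The NF-kappaB motif was in 3 of the 8 (H2-K1, H2-D1 and B2m) and in 4.51% of all windows. The interferon-stimulated element, in the exact form given above, was in 1 of the 8 (B2m) and in 3.44%. A gamma-activated site was in 1 of the 8 (Psmb8) and in 8.3%. Variants of these motifs were not searched, so a window without a match, such as that of H2-K1 or H2-D1, may still hold a related element. Overlapping matches were counted once per window, and a match is a description of the letters only.

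Values are the scanner's processed signal (background-subtracted intensity) and its log2 after subtracting each array's 75th percentile, called the scaled log2 level. The share of probes well above background ran from 44.2% to 53.5% per array, and no probe was saturated. The control arrays differed little from each other (robust SD of the log2 difference 0.17 over all genes), and the first no.1 array differed from the second by 0.42. Plod2, the targeted gene, has 1 probe, which read 42.1 and 34.9 on the control arrays against 31.8 and 17.1 (no.1) and 13.3 and 8.59 (no.2). After scaling it was 4.38-fold lower than control in no.1 and 5.92-fold lower in no.2 (adjusted p = 0.0061 and 0.0077), and it differed by 1.35-fold between no.1 and no.2 (adjusted p = 0.52). With scaling to the spike-in probes the Plod2 log2 fold changes against control were -0.19 and -1.27 (adjusted p = 0.60 and 0.013), so its call in no.1 depends on the scale. Relative to the 7 spike-in probes above background, the 75th percentile was 3.76 to 3.91 times that of control on the no.1 arrays and 2.0 to 3.0 times on the no.2 arrays. Scaling to the spike-ins moves the median log2 fold change of all genes from -0.12 to 1.82 in no.1 and from -0.10 to 1.19 in no.2, so each change below is relative to the bulk of the genes on the array. Fibroblast markers were well above background on all 6 arrays for 9 of 10 genes, the exception being Lum, which was above it on none. Of 11 macrophage and other myeloid markers, 7 were above background on no array, Ptprc, Adgre1 and Lyz2 among them. The other 4, Csf1r, Itgam, Cd14 and Cd68, were above background on all 6 arrays, with Itgam at 1165 to 2446.

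Against control, 9 of the 10 genes fell in no.1 and 2 of the 10 in no.2, and none rose. H2-K1, H2-D1, B2m, Tap1, Tap2, Tapbp, Psmb8, Psmb9 and Psmb10 passed the test in no.1, and the heavy chains H2-K1 and H2-D1 in no.2. The test was limma's moderated test over all 6 arrays, with a call where the Benjamini-Hochberg adjusted p over all genes tested was under 0.05. In no.1 47.8% of all genes were called (26.4% lower and 21.4% higher), and in no.2 28.3% (16.2% lower and 12.1% higher), so 2 of 10 in no.2 is near the background share. The median log2 fold change of the 10 genes was -2.08 in no.1, beside -0.12 for all genes, and -0.95 in no.2, beside -0.10. With the 2 control arrays averaged into 1 value, which removes their small spread from the fit, 3 of the 10 genes (H2-K1, H2-D1 and Tap2) were called in no.1 and 0 in no.2. Without control replicate 2, 2 genes were called in no.1 (H2-K1 and H2-D1) and 0 in no.2, and without control replicate 1, 4 and 0. Without either no.1 array 5 genes were called in no.2 (H2-K1, H2-D1, Tap2, Psmb8 and Psmb9), and without no.2 replicate 1 only H2-D1 was. With spike-in scaling limma called 0 in either comparison, and 0 had an unadjusted p under 0.05, while each other count of 0 against control stands beside 2 genes at an unadjusted p under 0.05. Calls on the higher side made up 44.8% of all calls in no.1 and 42.8% in no.2, 69.7% and 69.0% with median scaling, and 97.8% and 96.6% with spike-in scaling. The 2 comparisons share the control arrays.

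**Figure D1:**
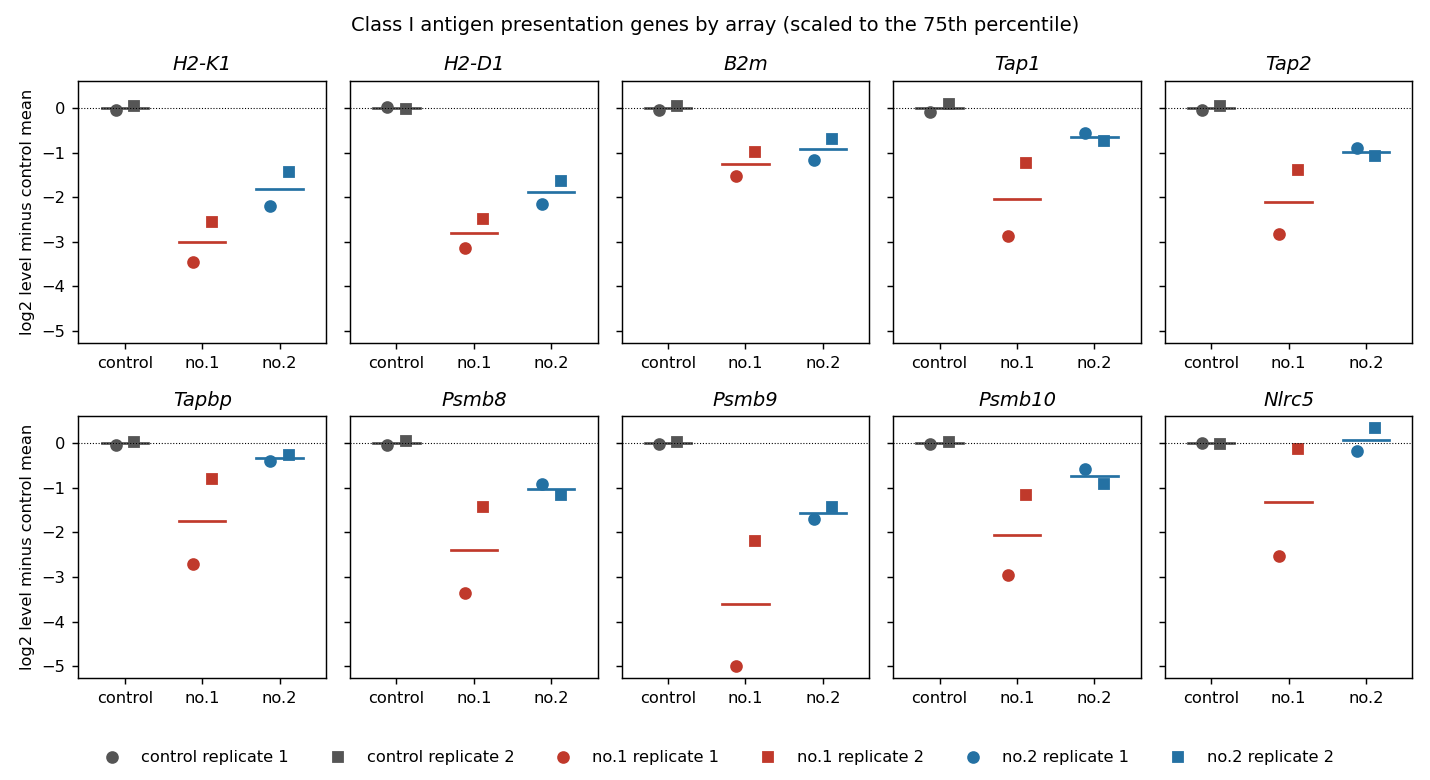
Scaled log2 level of each of the 10 genes minus its control mean, by group, with circles for replicate 1, squares for replicate 2 and a line at the mean of 2 arrays. For all 10 genes the lowest point is no.1 replicate 1, and every treated array lies below the control mean for the 9 genes other than Nlrc5.

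H2-K1 encodes the K heavy chain, one of the classical class I molecules that present peptide to CD8 T cells. Its representative probe, A_51_P198434, read 32388 and 33620 on the control arrays against 8543 and 14056 (no.1) and 11679 and 20523 (no.2). All 4 treated arrays read below both control arrays before any scaling, and the no.1 and no.2 readings overlapped. The mean spike-in signal was also lower on the treated arrays, so unscaled readings are not free of differences between arrays. It was 417 and 412 in control against 300 and 276 (no.1) and 336 and 231 (no.2). On the scaled log2 scale the control mean was 9.93 ± 0.05, that of no.1 6.92 ± 0.63 and that of no.2 8.11 ± 0.54 (SD, n = 2 each). H2-K1 fell 8.02-fold in no.1 (log2 fold change -3.0 with SE 0.38, adjusted p = 0.0037) and 3.52-fold in no.2 (log2 fold change -1.81 with SE 0.38, adjusted p = 0.022). A further H2-K1 probe, A_55_P2049647, gave -3.0 (adjusted p = 0.0050) and -1.64 (adjusted p = 0.043) in a fit of every probe.

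H2-D1 encodes the D heavy chain. Its probe read 11631 and 11252 in control against 3654 and 5133 (no.1) and 4144 and 6205 (no.2). The treated arrays again all lay below control before scaling, and the no.1 and no.2 readings overlapped. H2-D1 fell 7.03-fold in no.1 (log2 fold change -2.81 with SE 0.30, adjusted p = 0.0027) and 3.72-fold in no.2 (log2 fold change -1.90 with SE 0.30, adjusted p = 0.011). The class I heavy chain genes are related in sequence and the probe sequences were not used here, so how far each probe reads only its own gene is uncertain. The log2 fold changes of H2-K1 and H2-D1 stayed below 0 under all 17 alternatives, from -3.45 to -1.06 for H2-K1 and from -3.15 to -0.88 for H2-D1 in no.1. In no.2 they ranged from -2.20 to -0.52 and from -2.16 to -0.60. The end nearest 0 is spike-in scaling in each case, where neither was called.

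B2m, the light chain shared by all class I heavy chains, read 10677 and 11070 in control against 10652 and 13757 (no.1) and 7884 and 11333 (no.2). Unscaled, the 3 groups overlapped, unlike the heavy chains. After scaling it fell 2.39-fold in no.1 (log2 fold change -1.26 with SE 0.28, adjusted p = 0.014), while its no.2 value, -0.92 (SE 0.28, adjusted p = 0.052), did not pass. With spike-in scaling the B2m values were 0.68 and 0.37, so the direction of B2m depends on the scale.

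Tap1 and Tap2 encode the subunits of the peptide transporter. Tap1 read 1717 and 1914 in control against 699 and 1935 (no.1) and 1980 and 1830 (no.2), and Tap2 read 2567 and 2693, 1047 and 2516, and 2281 and 2102. The first no.1 array stood below the other 5 for both genes, and on the other treated arrays the unscaled signal was nearer to control. Tap1 fell 4.15-fold in no.1 (log2 fold change -2.05 with SE 0.51, adjusted p = 0.020) and Tap2 4.31-fold (log2 fold change -2.11 with SE 0.45, adjusted p = 0.013). In no.2 the log2 fold changes were -0.65 (adjusted p = 0.35) and -0.99 (adjusted p = 0.14). Without the first no.1 array the no.1 values were -1.23 (adjusted p = 0.030) and -1.39 (adjusted p = 0.024), smaller by over 1.5 times and still called. A second, dimmer Tap1 probe, A_51_P100327, gave -1.74 in no.1 (adjusted p = 0.051). The dim Tap2 probe A_51_P240654 was above background on the 2 control arrays only, and not well above it on any treated array. Over the 17 alternatives the adjusted p in no.1 ran from 0.0054 to 0.84 for Tap1 and from 0.0052 to 0.74 for Tap2, highest with spike-in scaling.

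Tapbp encodes tapasin, which bridges the transporter and the empty heavy chain. It read 2700 and 2822 in control against 1203 and 3970 (no.1) and 3413 and 3867 (no.2). Of the no.1 arrays, the first thus read lower than control and the other higher. After scaling Tapbp fell 3.36-fold in no.1 (log2 fold change -1.75 with SE 0.57, adjusted p = 0.048), just inside the threshold, while its no.2 value was -0.33 (SE 0.57, adjusted p = 0.68). Its other probe, A_52_P684830, gave -1.06 in no.1 (adjusted p = 0.10). With the first no.1 array left out, the Tapbp value was -0.80 (adjusted p = 0.055), and over all alternatives its adjusted p ran from 0.0055 to 0.77.

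Psmb8, Psmb9 and Psmb10 encode the catalytic subunits that interferon-gamma substitutes into the proteasome to form the immunoproteasome. Psmb9 read 1254 and 1280 in control against 111 and 695 (no.1) and 631 and 789 (no.2). All treated arrays were below control, with the first no.1 array far below the rest. Psmb9 fell 12-fold in no.1 (log2 fold change -3.60 with SE 0.83, adjusted p = 0.016), the largest change among the 10 genes, and its SD within no.1 was 1.99 on the log2 scale. Leaving that array out gave -2.19 (adjusted p = 0.016). In no.2 the log2 fold change was -1.57 (SE 0.83, adjusted p = 0.19), and without the first no.1 array, whose spread enters the common estimate, the adjusted p for that same difference was 0.015. Psmb8 read 2385 and 2501, 674 and 2279, and 2113 and 1834, and Psmb10 read 6418 and 6540, 2381 and 7226, and 7087 and 5770. Both were lowest on the first no.1 array and elsewhere nearer to control before scaling. Psmb8 fell 5.25-fold in no.1 (log2 fold change -2.39 with SE 0.59, adjusted p = 0.020) and Psmb10 4.16-fold (log2 fold change -2.06 with SE 0.55, adjusted p = 0.025). The no.2 values were -1.03 (adjusted p = 0.22) and -0.74 (adjusted p = 0.33). Leaving out the first no.1 array gave -1.43 and -1.17 in no.1, both still called, at adjusted p = 0.025 and 0.038. Over the alternatives the adjusted p in no.1 ran from 0.0039 to 0.094 for Psmb9, from 0.0047 to 0.47 for Psmb8 and from 0.0061 to 0.84 for Psmb10, and that of Psmb9 in no.2 from 0.015 to 0.77.

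Nlrc5 encodes the transactivator of class I genes. Its representative probe read 109 and 105 in control against 52.3 and 247 (no.1) and 154 and 227 (no.2). Unscaled, only the first no.1 array lay below control. The scaled log2 level was 1.68 and 1.64 in control against -0.88 and 1.54 (no.1) and 1.49 and 2.00 (no.2). After scaling, both no.1 arrays and the first no.2 array thus lay below control, and the second no.2 array above it. Neither log2 fold change passed the test, at -1.33 in no.1 and 0.08 in no.2 (adjusted p = 0.18 and 0.94), each with an SE of 0.73. Without the first no.1 array the no.1 value was -0.12 (adjusted p = 0.77, with a range of 0.0091 to 0.77 over the alternatives). A much dimmer Nlrc5 probe, A_66_P113043, read 6.8 to 8.7 on every array and gave -1.24 in no.1 (adjusted p = 0.0076), so the 2 probes differ in call.

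**Figure D2:**
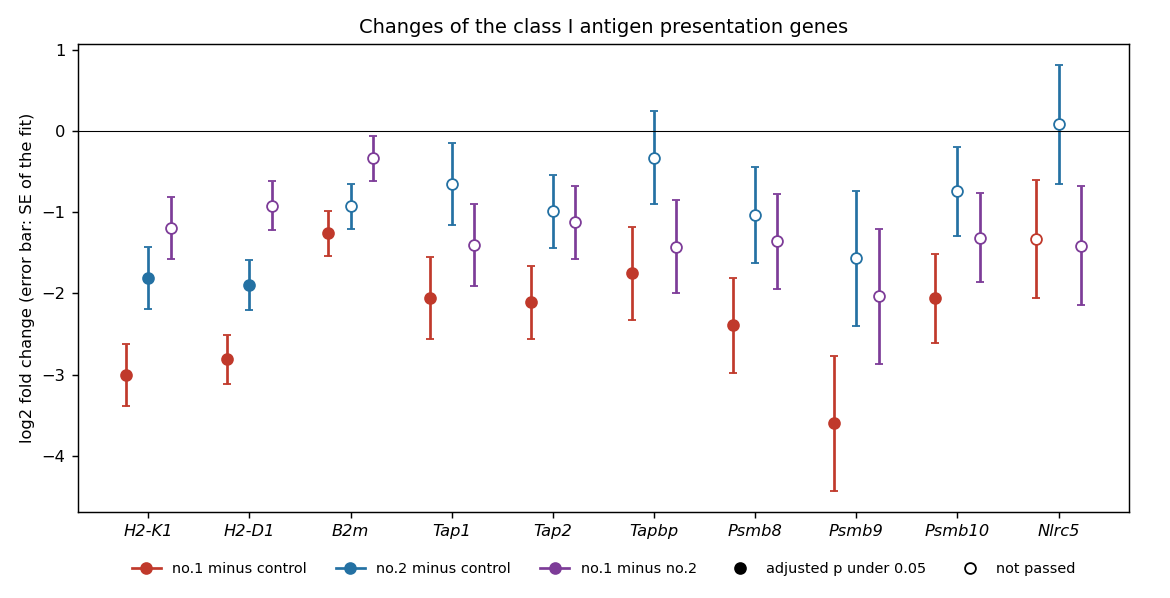
Log2 fold change of each gene in the 3 comparisons, with the SE of the limma fit (2 arrays per group) and filled points at adjusted p under 0.05. The 9 filled no.1 minus control points and the 2 filled no.2 minus control points are all below 0, and no point of no.1 minus no.2 is filled.

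The series' own design sets no.1 beside no.2, that is cells kept with tamoxifen beside cells from which it was withdrawn. None of the 10 genes was called, and neither was any of the 23060 genes (0%), although 3825 genes, 6 of the 10 among them, had an unadjusted limma p under 0.05. All 10 lay lower in no.1, with log2 differences from -2.03 (Psmb9) to -0.33 (B2m) and adjusted p from 0.28 to 0.54, and a median of -1.34 beside -0.01 for all genes. The 95% intervals, not adjusted over genes, ran from -2.12 to -0.26 for H2-K1, from -1.66 to -0.18 for H2-D1, from -1.01 to 0.34 for B2m and from -4.06 to -0.01 for Psmb9. The differences were widest on 1 array. Without the first no.1 array the median difference was -0.45. Without the second no.1 array 2 of the 10, Tapbp and Psmb9, were called lower in no.1.

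Ratios of 2 genes on the same array do not depend on how the arrays are scaled. Given as log2 relative to the control mean, H2-K1 over B2m was -1.92 and -1.57 in no.1 as against -1.03 and -0.75 in no.2. H2-D1 over B2m was -1.62 and -1.50, and -1.0 and -0.94. The control arrays lay within 0.05 of their mean, so the heavy chains were lower relative to their light chain on all 4 treated arrays, more so in no.1 than in no.2 without overlap. H2-K1 over H2-D1 stayed between -0.30 and 0.20. With 2 arrays against 2 an exact two-sided permutation test cannot go below p = 0.33, so none of these ratios can pass a test by itself.

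The immunoproteasome subunits were set against the standard subunits that they replace. Psmb8 over Psmb5 was -2.13 on the first no.1 array and between -0.10 and 0.38 on the other 3 treated arrays. Psmb9 over Psmb6 was -3.82 and -1.09 in no.1, and -1.09 and -0.09 in no.2. Psmb10 over Psmb7 was -2.87 and -0.91, and -0.51 and -0.71. All 3 ratios were thus lowest on the same array, and that of Psmb8 was within 0.38 of control on the others. Tap1 over Tap2 stayed between -0.05 and 0.34 on the treated arrays. Psmb9 over Tap1, the pair that shares the promoter region printed above, was -2.13 and -0.96 in no.1, and -1.13 and -0.70 in no.2, below control on all 4 treated arrays.

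**Figure D3:**
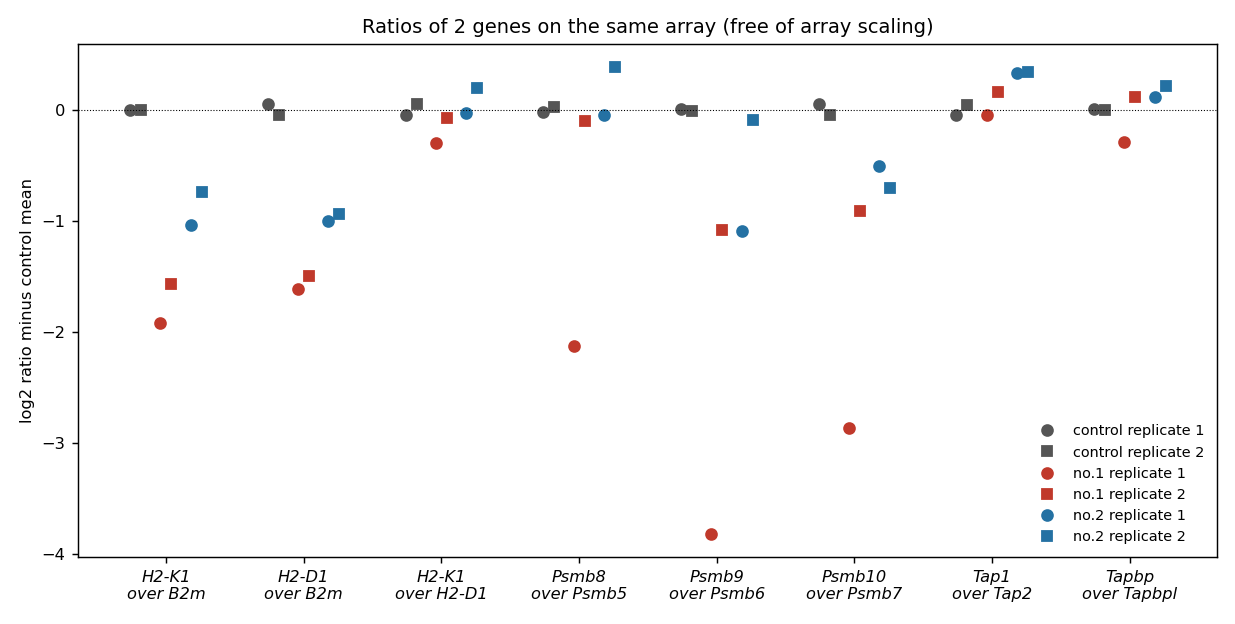
Log2 ratio of 2 genes on the same array minus the control mean, with 1 point per array. The heavy chains over B2m lie between -1.92 and -0.75 on all 4 treated arrays, whereas for the inducible over the standard proteasome subunits no.1 replicate 1 stands apart at -2.13 to -3.82.

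Other class I heavy chain and class I-like genes also fell. Of 15 tested, 10 fell in no.1 and none rose (median log2 fold change -2.59). In no.2, 7 fell and none rose (median -1.21). Of all genes, 26.4% were called lower in no.1 and 16.2% in no.2, and the medians of all genes were -0.12 and -0.10. Hfe, an iron-regulating class I-like molecule, read 152 and 150 in control against 31.6 and 63.0 (no.1) and 39.9 and 74.4 (no.2), and fell by 3.17 on the log2 scale in no.1 (adjusted p = 0.0046) and by 2.19 in no.2 (adjusted p = 0.021). H2-T23, which encodes Qa-1, a ligand of NK cell receptors, fell by 3.07 in no.1 (adjusted p = 0.0067). H2-Q10 and H2-Q7 each fell by 3.03 in no.1 (adjusted p = 0.0043 and 0.0032), and by 1.76 and 1.97 in no.2 (adjusted p = 0.029 and 0.015). H2-Q8 fell by 1.63 in no.2 (adjusted p = 0.036). How far each of these heavy chain probes reads only its own gene is uncertain here too, so these falls may not be separate. The 5 genes of this list that did not pass in no.1 were H2-T3, H2-T24, H2-Q4, Mr1 and Cd1d1, at -0.85 to -0.38. Without the first no.1 array 10 again fell in no.1. With the control arrays averaged 9 were called in no.1 and 0 in no.2, and with spike-in scaling none was lower and 5 were higher in no.1, with a list median of -0.66.

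Class II genes, which present peptides from outside the cell, also fell. All 5 tested were called lower in no.1 (median -3.28) and in no.2 (median -2.97), beside 26.4% and 16.2% of all genes called lower. A further 6 of the list did not pass the filter on dim probes. H2-Ab1 read 726 and 776 in control against 29.8 and 34.0 (no.1) and 27.0 and 19.3 (no.2), a fall of 5.97 in no.1 and 5.76 in no.2 (adjusted p = 0.00038 and 0.00056) on the log2 scale. H2-DMb1 and H2-DMa, subunits of the class II peptide exchanger, fell by 4.16 and 3.28 in no.1 and by 3.35 and 2.97 in no.2. H2-Eb1 fell by 2.43 and 1.53. Ifi30, a thiol reductase that unfolds antigens for class II loading, read 266 and 265 in control against 321 and 290 (no.1) and 208 and 206 (no.2). It fell by 1.21 and 1.08 on the scaled log2 scale (adjusted p = 0.0051 and 0.013), although its unscaled readings in no.1 were above control. With the control arrays averaged 5 of the 5 were called in no.1 and 3 in no.2, where H2-Eb1 (adjusted p = 0.14) and Ifi30 (adjusted p = 0.090) were lost. With spike-in scaling 3 were called lower in each comparison, and Ifi30 was called higher in no.1, at 0.73 (adjusted p = 0.044). H2-Aa, the partner chain of H2-Ab1, was above background on no array, and Cd74, the invariant chain, on 2. Because professional antigen-presenting cells carry class II, their markers are given beside these falls. The summed scaled level of the 11 myeloid markers was 49.2 and 46.1 in control against 28.8 and 32.9 (no.1) and 36.9 and 30.1 (no.2), where 1 is the 75th percentile of the array. Itgam alone made up 75% to 88.8% of that sum. Of these markers Csf1r, Itgam, Cd14 and Cd68 were above background on all arrays and tested, with a median log2 fold change of -0.22 in no.1 and -0.35 in no.2. Csf1r was the 1 called lower in each comparison, at -2.40 and -2.07, while Cd14 was at -0.05 and 0.23 and not called. Of 5 dendritic markers, Itgax, Flt3 and Xcr1 were above background on no array, Zbtb46 on both no.1 arrays only, and Ccr7 on the first control and the second no.1 array. The sum of the 10 fibroblast markers was 4932 and 5230 in control against 1964 and 2032 (no.1) and 2572 and 2172 (no.2). S100a4 alone made up 43.6% to 72.6% of it, and without S100a4 control summed to 1374 and 1432 against 877 and 917 (no.1) and 1125 and 1225 (no.2). Of 9 tested fibroblast markers, 5 were called lower in no.1 and 4 in no.2, and none was called higher. Their median log2 fold change was -1.54 in no.1 and -0.83 in no.2, with 9 and 6 of the 9 on the lower side. Dcn read 734 and 757 in control against 122 and 185 (no.1) and 165 and 380 (no.2). Col1a1 (-0.13 in no.1 and 0.25 in no.2) and Vim (-0.03 and -0.09) were not called. The same shares of all genes, 26.4% and 16.2%, stand beside these counts and that of the myeloid markers. The part of either marker list in the class I and class II values was not tested. In such bulk RNA, fewer cells of a type and less RNA per cell cannot be told apart.

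Of 16 tested genes that interferon-gamma induces, 2 fell in no.1 (Icam1 and Cd274) and 1 in no.2 (Icam1), beside 26.4% and 16.2% of all genes. None rose. Icam1, an adhesion molecule, was at least 10.9-fold lower in no.1 and at least 7.11-fold lower in no.2, not being above background there (the bound takes the lowest signal well above background on each array). Icam1 passed the filter on dim probes only through the control arrays, where it was high, so its calls follow in part from the filter. Cd274, which encodes the checkpoint ligand PD-L1, fell by 2.02 in no.1 (adjusted p = 0.031), with readings of 41.1 and 45.2 in control, and 16.2 and 49.5 in no.1. Cd274 was not called with the control arrays averaged (adjusted p = 0.088), and its value was -0.08 with spike-in scaling. The list's median was -1.71 in no.1 and -0.24 without the first no.1 array, and -0.05 in no.2. On the first no.1 array 15 of the 16 genes had their lowest scaled level, as did all 10 class I presentation genes, 13 of the 15 other class I genes and 25.3% of all genes tested. Gbp2, a guanylate-binding protein named here after its values were seen, read 864 and 804 in control against 138 and 1210 (no.1) and 827 and 1147 (no.2).

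Among 29 genes of class I transcription and interferon signalling, 8 rose and 5 fell in no.1 (median -0.20), and 3 rose and 0 fell in no.2 (median 0.21). These counts stand beside 21.4% higher and 26.4% lower of all genes in no.1 and 12.1% and 16.2% in no.2. The list was not tested against all genes. With the control arrays averaged 4 were called higher and 0 lower in no.1, and 1 and 0 in no.2. Irf7, a factor of the type I interferon response, read 26073 and 27787 in control against 2630 and 21439 (no.1) and 18448 and 22986 (no.2), and fell by 3.25 in no.1 (adjusted p = 0.032). Its scaled log2 level was 9.58 and 9.69 in control against 4.78 and 7.98 (no.1) and 8.39 and 8.66 (no.2), so all 4 treated arrays lay below control, the first no.1 array lowest. With the control arrays averaged Irf7 was not called (adjusted p = 0.085), nor with spike-in scaling (-1.32, adjusted p = 0.21). Ezh2, the methyltransferase of Polycomb repressive complex 2, read 17.8 and 25.1 in control against 695 and 408 (no.1) and 169 and 175 (no.2). It rose by 3.24 in no.1 and 2.30 in no.2 (adjusted p = 0.0017 and 0.0064), with no overlap between the 3 groups. Suz12 of the same complex rose by 1.47 in no.1 (adjusted p = 0.0050). Nfya, a subunit of the Y box factor NF-Y, rose by 1.67 in no.1 and 1.44 in no.2 (adjusted p = 0.0075 and 0.020), and Nfyc by 0.99 in no.2 (adjusted p = 0.019). Averaging the control arrays ended the no.2 calls of Nfya and Nfyc (adjusted p = 0.083 and 0.11).

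Of 17 tested peptide loading and trimming genes other than the 10, 5 rose and 1 fell in no.1 (median 0.25), and 1 rose and 0 fell in no.2 (median 0.35). The rises stand beside 21.4% of all genes in no.1 and 12.1% in no.2. With the control arrays averaged 2 were called higher and 0 lower in no.1, and 0 in no.2. The cytosolic peptidases Tpp2 and Blmh rose by 1.31 and 1.27 in no.1 (adjusted p = 0.0054 and 0.0060), and the chaperone calnexin (Canx) by 0.92 (adjusted p = 0.017). Blmh also rose in no.2, by 1.1 (adjusted p = 0.016). Tapbpl, a tapasin-related peptide editor, was the 1 that fell, by 1.67 in no.1 (adjusted p = 0.029), and its value turned to 0.27 with spike-in scaling. Of 15 other proteasome genes, 4 rose and 6 fell in no.1 (median -0.54), and 1 rose and 4 fell in no.2 (median -0.41), beside 26.4% of all genes lower in no.1 and 16.2% in no.2. With the control arrays averaged 1 proteasome gene was called higher and 0 lower in no.1, and 0 in no.2. Without the first no.1 array 1 was called higher and 0 lower in no.1, and 1 and 2 in no.2, so none of the falls in no.1 was called under either alternative. Psme4, a nuclear proteasome activator, rose by 1.43 in no.1 and 0.84 in no.2 (adjusted p = 0.0048 and 0.033). Psme1, a subunit of the interferon-inducible activator PA28, fell by 1.31 in no.1 (adjusted p = 0.033). The standard catalytic subunits Psmb5 and Psmb6 fell by 1.28 and 1.15 in no.1 (adjusted p = 0.012 and 0.018), and by 1.20 and 0.98 in no.2 (adjusted p = 0.025 and 0.045). The assembly factor Psmg3 fell by 0.86 in no.2 (adjusted p = 0.045). The values of Psme1, Psmb5, Psmb6 and Psmg3 turned positive with spike-in scaling. No gene of these lists was called between no.1 and no.2.

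**Figure D4:**
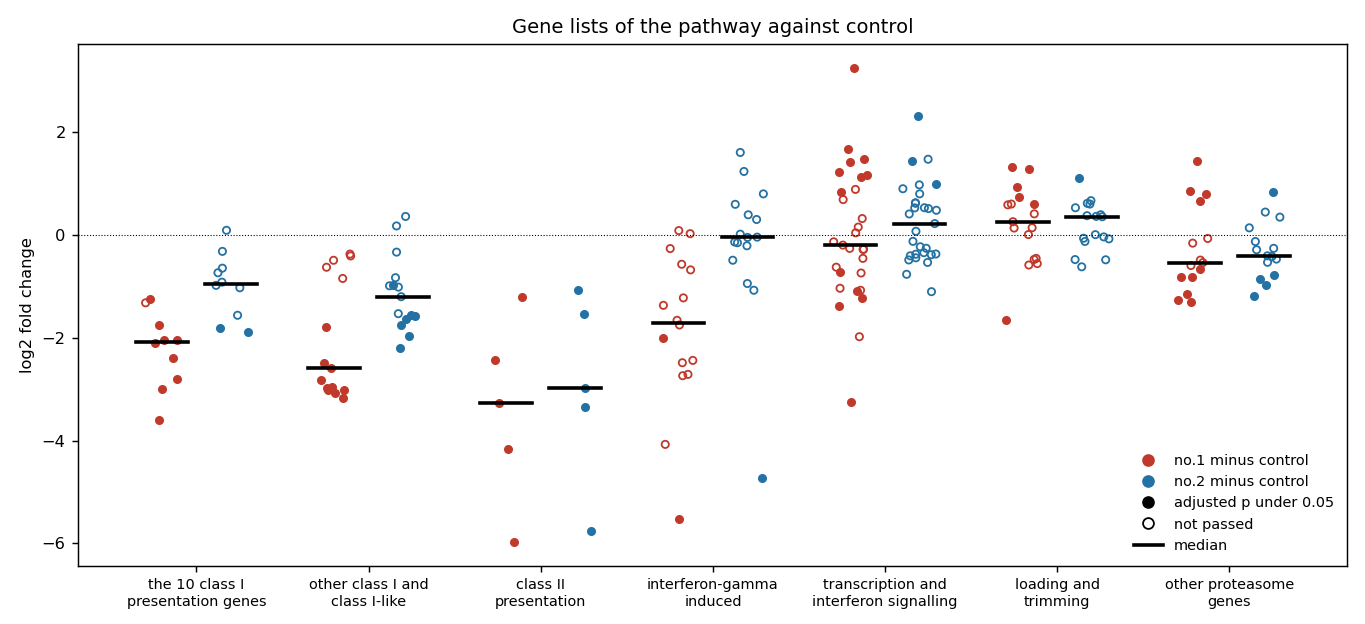
Log2 fold change against control of every tested gene in 7 lists, in red for no.1 and blue for no.2, filled at adjusted p under 0.05, with a bar at the median. The medians of the 10 class I presentation genes, the other class I genes and the class II genes lie at -2.08, -2.59 and -3.28 in no.1, while those of the loading and trimming genes lie at 0.25 and 0.35. The fitted values of Icam1, at the foot of its list, are not bounds.

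Across the 6 arrays each of the 10 genes followed the mean of the other 9, with Pearson r from 0.83 (Nlrc5) to 0.999 (Psmb9), a description over 6 points that share scaling and groups. By the same measure, the 5 genes most like the mean centred profile of the 10, among 12049 other named genes above background on all arrays, were H2-M3, Mmp19, Tmem229b, Pnpla7 and Atp6v1b2, with r from 0.9979 (Atp6v1b2) to 0.9996 (H2-M3). H2-M3, which presents formylated peptides and holds the spaced pair of elements given above, read 283 and 285 in control against 150 and 322 (no.1) and 245 and 281 (no.2). It fell by 1.79 in no.1 (adjusted p = 0.016), and its value turned to 0.15 with spike-in scaling. The matrix metalloproteinase gene Mmp19 read 641 and 677, 195 and 527, and 474 and 584.

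The choice of scale shifted all 10 genes. In no.1 the log2 fold change of H2-K1 was -3.0 with the 75th percentile and -1.06 with the spike-ins, and that of Nlrc5 was -1.33 and 0.61. In no.2 Tapbp was -0.33 with the 75th percentile, 0.07 with quantile normalization, 0.08 with normexp background correction and 0.97 with the spike-ins. Under every scaling drawn, H2-K1, H2-D1 and Psmb9 stayed below 0 in both comparisons with control.

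**Figure D5:**
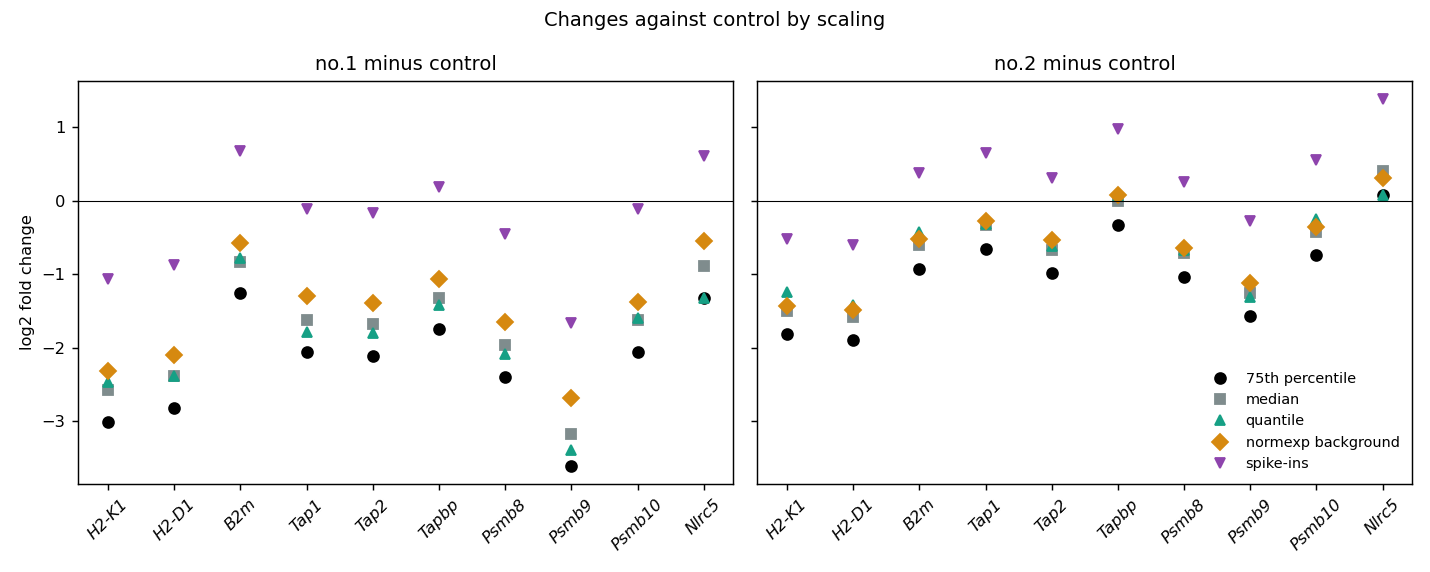
Log2 fold change of the 10 genes against control (no.1 left, no.2 right) under 5 scalings, each marked by its own symbol. H2-K1, H2-D1 and Psmb9 lie below 0 in both panels under all 5, whereas the spike-in values of B2m, Tapbp and Nlrc5 lie above 0 in both.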

How the data were processed

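The 6 Agilent arrays each carried 1 Cy3-labelled total RNA sample, per the labels' protocols. The deposited scanner files hold intensity values which, per the file headers, came from Agilent Feature Extraction 12.1.1.1 with build mm9, a version other than the 9.5.1.1 in the submitters' processing notes. The processed signal is background-subtracted and not normalized between arrays. The series' value table of intensity, deposited by the authors with its processing unstated, lay within 1% of the quantile-normalized signal for at least 99.97% of values (column median 5.16), so its scale and direction are known, and it served as an alternative. All arrays lay on 1 slide in 1 scan, control in row 1 and the treated groups in row 2, so row and treatment cannot be told apart.

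Main values were log2 signal minus the array's 75th percentile. Accessions were matched to symbols in a RefSeq table (58.3% of probes matched). The probe with the highest mean stood for its gene, and the gene was tested if this probe was above background on the 2 arrays of at least 1 group. Tests used limma 3.58.1 in R 4.3.3 (reading files with data.table, 1.17.8), a mean per group over 6 arrays with 3 residual degrees of freedom. The fit was tested on simulated data. Figures used matplotlib 3.10.9. Their number, 2 arrays per group, limits the precision. The members and lists were chosen with earlier results of these data known. The text names the 10 members, the 4 largest called changes of each list per comparison and the 5 genes most like the members' mean profile. Named outside this rule were Plod2, Gbp2, Psmb7, Ifi30, some further genes of the class I-like and class II lists, and single cell type markers. Alternatives covered scaling, background correction, probe choice, the filter, the samples fitted and each array left out.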

Additional observations from a re-analysis of the deposited data

How the results depend on the processing

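Of the 17 alternatives, the number of the 10 genes called in no.1 against control stayed within 1.5 times of 9 except with spike-in scaling (0), the deposited value table and normexp background correction (5 each), the control arrays averaged (3) and control arrays left out. Leaving out 1 array at a time gave 2 to 10. In no.2 against control the number was 2, and became 0 with spike-in scaling and with the control arrays averaged, 1 with quantile normalization and with the value table, and 5 with only the 2 groups compared. Leaving out 1 array gave 0 to 5. Between no.1 and no.2 the number was 0, and leaving out 1 array gave 0 to 2. With spike-in scaling the sign turned in no.1 for B2m (0.68), Tapbp (0.19) and Nlrc5 (0.61), in no.2 for B2m (0.37), Tap1 (0.64), Tap2 (0.31), Tapbp (0.97), Psmb8 (0.26) and Psmb10 (0.55), and between the treated groups for B2m (0.31). Tapbp in no.2 also turned with quantile normalization (0.067), the value table (0.064) and normexp (0.079). Nlrc5 in no.2, which was not called, turned to -0.32 with the mean of its probes and ranged from -0.17 to 0.34 with 1 array left out. The cause of these changes was not tested. Over all genes, 11021 were called in no.1 and 6518 in no.2, 4846 and 1246 with the control arrays averaged, 19388 and 15642 with spike-in scaling, and 24873 and 16476 with no filter. Normexp gave 16135 in no.1. Leaving out 1 array gave 4999 to 12054 and 1298 to 6367. Between no.1 and no.2, no filter gave 8296 and leaving out no.1 replicate 2 gave 117, beside 0. With the replicate number as a block, 9, 3 (B2m was added) and 0 of the 10 genes were called. The numbers pair no samples by the labels, and same-numbered arrays deviated together with r = -0.03 for control and no.1, -0.02 for control and no.2 and 0.17 for no.1 and no.2. Where an alternative leaves a group with 1 array, that array is assumed to vary like the other groups. A slide block was not run, since all arrays share 1 slide, and normexp used the median spot signal in place of the mean. Normexp on the median signal, fitting each probe by itself, the list counts under alternatives and the ratios within arrays were chosen after seeing the data.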
